A study of Mus musculus with 16 samples.

Results

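The Notch signalling genes Dll1, Dll4, Jag1, Jag2, Notch1, Notch2, Lfng, Hes1, Hes6 and Nrarp were examined in sorted epithelium of the mouse colon, as 10 of the 45513 genes counted in each library. They were chosen by name, as ligands, receptors, a modifier of the receptors and genes of the Hes and Nrarp response, and all 10 passed the filter on low counts. In 8 Atoh1(WT)CreERT2; Rosa26 tdTom/+ mice, EpCAM+ epithelial cells that carried the tdTom reporter (tdTom+) and those that did not (tdTom-) were collected from the same colon, giving 8 libraries per population and 16 in all. All mice shared a background of C57BL/6, were males and females 8 to 16 weeks old, carried the wild-type Atoh1 allele joined to CreERT2 on both chromosomes and 1 copy of the reporter, and received tamoxifen at 1 mg per day on 3 days, the dose given both by the labels and by the methods of the study for the secretory signature. The general RNA sequencing protocol of the study names 3 mg and a collection 24 h later. The tdTom+ cells are therefore cells in which Atoh1 drove Cre around the time of tamoxifen, together with any descendants, and the tdTom- cells are all remaining EpCAM+ cells of the crypt-enriched fractions.

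Notch receptors are activated by ligands on the surface of a neighbouring cell. The cleaved intracellular part of the receptor joins the DNA-binding protein RBPJ in the nucleus and switches on repressor genes of the Hes family, and in the intestine Hes1 represses Atoh1, the factor required for secretory fate. In lateral inhibition, the cell that presents more Delta ligand becomes secretory and the neighbour that receives the signal expresses Hes1 and becomes absorptive.

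Dll1, Dll4, Lfng and Hes6 were higher in tdTom+ cells, and Notch1, Notch2, Hes1, Nrarp, Jag1 and Jag2 were lower. All 10 passed an adjusted p of 0.01 (quasi-likelihood test of edgeR, Benjamini-Hochberg over the 15841 genes tested), 4 upward and 6 downward. This fit had no mouse term, although both libraries of a mouse came from the same colon. With the mouse as a block, the same 10 passed in the same directions. Of all tested genes 51.0% passed, with 25.5% higher and 25.5% lower in tdTom+ cells, so that passing was common in this comparison. The difference had the same sign in 8 of 8 mice for each of the 10. The 8 tdTom+ values and the 8 tdTom- values did not overlap for any of them, which held for 30.5% of all tested genes. Dll1 and Dll4 stood out by size, since only 3.75% and 4.04% of tested genes had a larger absolute log2 fold change, whereas the corresponding share was 39.3% for Jag1. Levels below are CPM, the counts of a gene per 1e6 counts of a library whose total was scaled by edgeR's TMM factor, given as the lowest, median and highest of the 8 libraries of a population and as mean ± SD (n = 8), and log2 fold changes are of tdTom+ over tdTom- cells.

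**Figure D1:**
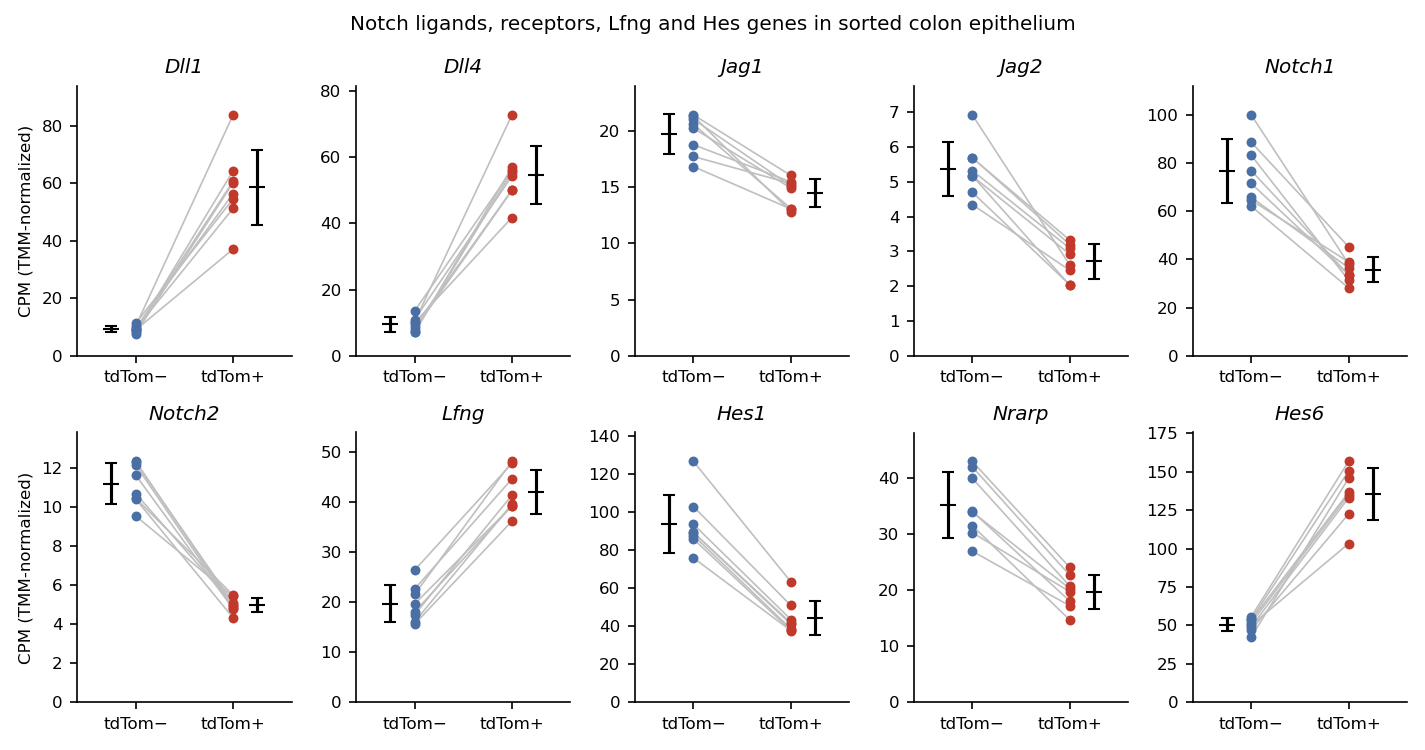
Level of each of the 10 genes in CPM (linear axes from 0) in the 8 tdTom- (blue) and 8 tdTom+ (red) libraries, with grey lines joining the libraries of a mouse and black bars for mean ± SD. In every panel all 8 lines run the same way and the populations do not overlap: Dll1, Dll4, Lfng and Hes6 rise to tdTom+ and the other 6 genes fall.

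Atoh1, whose locus drives the label, averaged 132 ± 19.3 CPM over the tdTom+ and 5.70 ± 1.67 CPM over the tdTom- libraries, a log2 fold change of 4.54 (SE 0.15, edgeR adjusted p = 1.14e-15). Total counts per library ran from 16482530 to 24218367 in tdTom+ and from 18318172 to 45791503 in tdTom- cells. The summed level of the 8 goblet cell markers was 51182 to 106942 CPM in tdTom+ and 2263 to 8807 CPM in tdTom- libraries, and all 8 were higher in tdTom+ cells. All 8 absorptive markers were lower (656 to 975 against 6463 to 12439 CPM in sum), as were all 7 enteroendocrine markers (311 to 786 against 1343 to 3864) and 4 of 6 tested tuft markers (47.7 to 100.4 against 88.5 to 144; 5 of 6 with the mouse as a block). Both deep crypt secretory markers, Reg4 and Kit, were higher (1739 to 4350.2 against 93.7 to 262). Of 5 tested stem cell markers 1 was higher and 4 were lower (209.8 to 255 against 211 to 321), and of 8 proliferation markers 4 were lower (552 to 871 against 669 to 1168), or 7 of 8 when the mouse was a block, with Mki67, Top2a and Mcm2 added. Of 5 pan-epithelial markers 1 was higher and 4 were lower (5229.8 to 6032 against 7528 to 9357). The sums were far smaller for markers of immune cells (5.42 to 9.49 against 9.60 to 17.2, 1 of 2 tested lower), endothelium (1.08 to 1.62 against 2.45 to 4.41, the 1 tested lower), fibroblasts (5.35 to 9.03 against 8.29 to 15.2, the 1 tested lower), smooth muscle (3.95 to 5.33 against 5.79 to 8.43, 2 of 3 tested lower) and glia and neurons (1.24 to 2.30 against 0.641 to 1.88, the 1 tested did not pass). Goblet and deep crypt secretory markers were therefore higher, and absorptive and enteroendocrine markers and part of the tuft, stem and proliferation markers lower, in the comparison used for the Notch genes below. Their part in each difference was not tested, and in bulk libraries fewer cells of a type and less RNA per cell cannot be told apart.

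The letters upstream of annotated start sites are shown first, for the genes in which an E-box, 1 of the 3 motifs searched for, was found. RefSeq start sites on GRCm38.p6 gave 11 windows of 250 bases for 9 of the 10 genes, and Hes1 had no entry. The window of Notch1 and 1 window each of Dll1 and Hes6 lay wholly inside the gene spans given below. Those of Jag1, Lfng and Notch2 lay partly inside their spans, and the E-box of Jag1 fell in the inner part. Each window was searched on both strands for TGGGAA, the core of the RBPJ motif, for CAGCTG, an E-box of the kind bound by basic helix-loop-helix factors, and for CACNAG, the N-box bound by Hes repressors. Among 32851 windows of the same length upstream of all genes, 21.6% held the RBPJ core, 13.001% the E-box and 36.7% the N-box. The RBPJ core was present in 1 of the 11 windows, that of Lfng, where it occurred at 135 and 108 bases before the start. The E-box was present in 5 windows, belonging to Dll1, Hes6 (both of its windows), Lfng and Jag1, so that 3 of the 4 genes higher in tdTom+ cells had one and, among the 5 lower genes with a window, Jag1 did. Dll1 and Hes6, both higher, had 2 windows each and the other genes 1, so the higher genes had more chances of a match. The other window of Dll1 (chr17:15375824-15376073, minus strand) held none of the 3 motifs. A link between the E-box and the direction of a gene was not tested. The N-box was present in 6 windows, of Dll4, Hes6, Lfng, Notch1, Notch2 and Nrarp, and Jag2 held none of the 3 motifs. A match is a run of letters and not a site of binding, and these windows do not cover more distant elements. The windows of Dll1 (chr17:15376933-15377182, minus strand, E-box 132 bases before the start), Hes6 (chr1:91414039-91414288, minus strand, E-box at 171), Lfng (chr5:140607091-140607340, plus strand, N-box at 181, E-box at 146 and the 2 RBPJ cores) and Jag1 (chr2:137116521-137116770, minus strand, E-box at 82) are printed from 5′ to 3′ on the strand of the gene, with the matches in capitals, because they set the E-box genes of both directions beside each other.
Dll1: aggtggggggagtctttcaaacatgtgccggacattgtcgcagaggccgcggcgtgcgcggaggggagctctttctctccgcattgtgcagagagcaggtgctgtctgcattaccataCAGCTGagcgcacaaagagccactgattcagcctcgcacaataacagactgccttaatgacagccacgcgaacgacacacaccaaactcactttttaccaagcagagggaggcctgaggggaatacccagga
Hes6: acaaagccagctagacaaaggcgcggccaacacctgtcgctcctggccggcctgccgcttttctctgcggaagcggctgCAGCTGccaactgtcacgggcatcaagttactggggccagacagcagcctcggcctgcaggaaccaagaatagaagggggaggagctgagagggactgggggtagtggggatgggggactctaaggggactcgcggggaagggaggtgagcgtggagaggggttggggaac
Lfng: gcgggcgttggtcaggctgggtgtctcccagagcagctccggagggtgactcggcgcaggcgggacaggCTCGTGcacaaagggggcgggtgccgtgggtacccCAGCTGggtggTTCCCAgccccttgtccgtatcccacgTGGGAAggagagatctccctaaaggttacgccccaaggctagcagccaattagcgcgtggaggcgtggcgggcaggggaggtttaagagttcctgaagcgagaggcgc
Jag1: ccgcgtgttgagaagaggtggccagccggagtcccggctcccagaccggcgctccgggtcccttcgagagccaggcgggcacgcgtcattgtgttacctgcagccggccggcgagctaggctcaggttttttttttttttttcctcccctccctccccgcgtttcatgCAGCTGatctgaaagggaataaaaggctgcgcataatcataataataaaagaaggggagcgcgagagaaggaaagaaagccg

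Dll1 and Dll4, the Delta ligands that present the signal in intestinal crypts, were both several-fold higher in tdTom+ cells. Dll1 (ENSMUSG00000014773, chr17:15367354-15376872, minus strand, GRCm38 here and below) had 37.1, 58.4 and 83.8 CPM in tdTom+ libraries, against 7.77, 9.28 and 11.3 CPM in tdTom- libraries. Even the lowest tdTom+ library, that of mouse 7, was above every tdTom- library. The means were 58.6 ± 13.1 CPM and 9.40 ± 1.10 CPM, with a log2 fold change of 2.64 (SE 0.12, edgeR adjusted p = 1.75e-13).

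Dll4 (ENSMUSG00000027314, chr2:119325784-119335962, plus strand) had 41.8, 54.99 and 72.8 CPM in tdTom+ and 7.18, 9.47 and 13.6 CPM in tdTom- libraries. Mouse 2 gave the highest tdTom+ value and mouse 7 the lowest for both Delta ligands. Mean levels of Dll4 were 54.7 ± 8.83 CPM and 9.52 ± 2.17 CPM, and the log2 fold change was 2.52 (SE 0.13, edgeR adjusted p = 4.29e-13). The per-mouse log2 ratio ran from 2.03 to 3.004 for Dll1 and from 2.04 to 2.97 for Dll4. Within a mouse the ratio of Dll1 exceeded that of Dll4 by 0.08 ± 0.19 on the log2 scale, with a range from -0.04 to 0.49 and a positive sign in 3 of 8 mice, which an exact sign-flip permutation test did not separate from 0 (two-sided p = 0.344, 0.430 adjusted over 5 pairs of genes).

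Relative to tdTom+ cells, the percentage found in tdTom- cells was larger for the Delta ligands than for Atoh1. Their level of Dll1 was 16.1% of that in tdTom+ cells (12.4% to 24.3% over the 8 mice) and that of Dll4 17.4% (12.6% to 24.1%). For Atoh1 the same percentage was 4.31% (3.10% to 7.26%). Over the 8 goblet markers it ran from 3.05% (Spink4) to 8.47% (Zg16). By mouse, the ranges of both Delta ligands lay above that of Atoh1 and above those of 6 of the 8 goblet markers, and overlapped those of Zg16 (3.62% to 17.4%) and Tff3 (3.94% to 13.2%).

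The Serrate-type ligands Jag1 and Jag2 were lower in tdTom+ cells, opposite to the Delta ligands. Jag1 (ENSMUSG00000027276, chr2:137081456-137116644, minus strand) had 12.8, 15.03 and 16.1 CPM in tdTom+ and 16.8, 20.4 and 21.4 CPM in tdTom- libraries, so that the highest tdTom+ value lay just below the lowest tdTom- value. Its means were 14.5 ± 1.27 CPM and 19.8 ± 1.75 CPM, and its log2 fold change of -0.45 (SE 0.07, edgeR adjusted p = 1.43e-05) was the smallest of the 10. Jag2 (ENSMUSG00000002799, chr12:112908590-112929495, minus strand) was scarce, with 34 to 67 counts per tdTom+ library.

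The CPM values of Jag2 were 2.03, 2.77 and 3.32 in tdTom+ and 4.34, 5.25 and 6.92 in tdTom- libraries, with means of 2.71 ± 0.505 CPM and 5.37 ± 0.774 CPM and a log2 fold change of -0.99 (SE 0.12, edgeR adjusted p = 7.31e-07). The fall was larger for Jag2 than for Jag1 in 8 of 8 mice, by 0.53 ± 0.27 on the log2 scale (range 0.03 to 0.83; exact sign-flip permutation test, p = 0.00781, the smallest that 8 mice allow, adjusted p = 0.0130). The titles number the mice in 3 series (mice 1 to 3, mouse 4 and mice 5 to 8), which may mark batches. The log2 ratio of Jag2 averaged -0.77 in mice 1 to 3, was -0.81 in mouse 4 and averaged -1.16 in mice 5 to 8. With mice 1 to 3 alone neither Jag gene passed (Jag1 -0.45, edgeR adjusted p = 0.0222; Jag2 -0.78, adjusted p = 0.0105), while with mice 5 to 8 alone both did, and the other 8 genes passed within both series.

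Levels of different genes were compared per kilobase of exon (RPKM, from TMM-scaled libraries). In tdTom+ cells the 4 ligands summed to 31.2 ± 5.43 RPKM, of which Dll1 made up 44.1% ± 2.94 and Dll4 45.6% ± 1.65. In tdTom- cells they summed to 9.42 ± 1.06 RPKM, and Jag1 was the leading ligand with 36.1% ± 2.11, ahead of Dll4 with 26.01% ± 3.32 and Dll1 with 23.7% ± 1.74. Jag2 was last in both populations, at 2.17% ± 0.416 and 14.1% ± 1.79. In tdTom+ cells the shares of Dll1 and Dll4 differed by less than the SD of either. In tdTom- cells they differed by more than the SD of Dll1 and less than that of Dll4. These differences of shares were not tested.

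**Figure D2:**
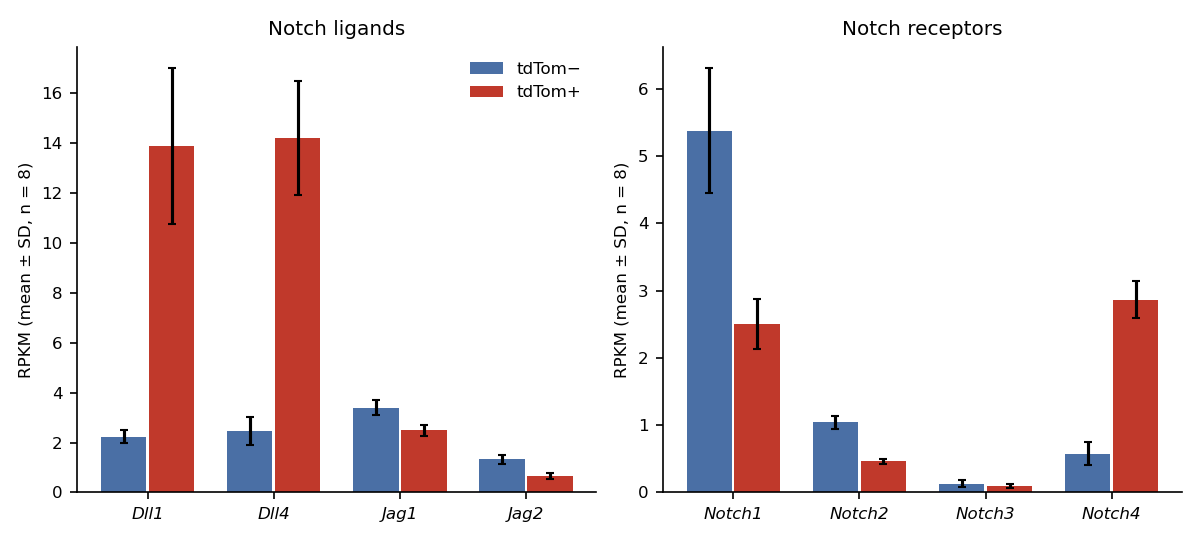
Mean level per exon length in RPKM (linear axes from 0, bars with SD, n = 8 libraries) of the 4 ligands and the 4 receptors in tdTom- (blue) and tdTom+ (red) cells. Dll1 and Dll4 dominate the ligands of tdTom+ cells at 13.9 and 14.2 RPKM, Notch1 dominates the receptors of tdTom- cells at 5.38 RPKM, and Notch4 is the receptor that is higher in tdTom+ cells.

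The receptors Notch1 and Notch2 were lower in tdTom+ cells, each by slightly more than a factor of 2. Notch1 (ENSMUSG00000026923, chr2:26457903-26516663, minus strand) had 28.1, 35.02 and 45.2 CPM in tdTom+ and 62.02, 74.1 and 99.8 CPM in tdTom- libraries, with means of 35.7 ± 5.26 CPM and 76.5 ± 13.2 CPM and a log2 fold change of -1.10 (SE 0.10, edgeR adjusted p = 9.96e-09). Notch2 (ENSMUSG00000027878, chr3:98013527-98150361, plus strand) had 4.34, 4.99 and 5.50 CPM in tdTom+ and 9.56, 11.2 and 12.4 CPM in tdTom- libraries. In both genes the whole tdTom+ range lay below the tdTom- range, and Notch2 varied least among the tdTom+ libraries of the 10 genes, with a coefficient of variation of 7.40%. The means of Notch2 were 4.9998 ± 0.370 CPM and 11.2 ± 1.06 CPM, and its log2 fold change was -1.16 (SE 0.08, edgeR adjusted p = 6.95e-11). The per-mouse ratios of Notch1 and Notch2 differed by 0.05 ± 0.23 on the log2 scale, from -0.22 to 0.40 and positive in 4 of 8 mice, and no difference was shown (exact sign-flip permutation test, p = 0.523, adjusted p = 0.523).

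Among the remaining receptors, Notch4 went the other way. Notch4 (ENSMUSG00000015468, chr17:34564268-34588503, plus strand), a receptor best known from endothelium, had 19.7, 23.2 and 25.5 CPM in tdTom+ and 2.64, 4.53 and 7.02 CPM in tdTom- libraries, with no overlap, and a log2 fold change of 2.32 (SE 0.14, edgeR adjusted p = 7.37e-12), close to the folds of the Delta ligands. Per exon length Notch4 made up 48.4% ± 3.72 of the 4 receptors in tdTom+ cells, beside 42.2% ± 4.18 for Notch1, and 8.23% ± 2.66 in tdTom- cells, where Notch1 held 75.3% ± 3.002. The order of these genes in tdTom+ cells depends on the exon lengths used, 8061 bases for Notch4 and 14232 for Notch1. By mean CPM Notch1 was ahead there, at 35.7 against 23.1. The receptor sum was 5.93 ± 0.460 RPKM in tdTom+ and 7.12 ± 1.01 RPKM in tdTom- cells. Of 7 endothelial markers only Pecam1 passed the filter on low counts, and it was lower in tdTom+ cells. It averaged 0.872 ± 0.116 CPM over the tdTom+ and 2.63 ± 0.416 CPM over the tdTom- libraries. The other 6 were below a mean of 1 CPM in both populations. Means of Tek (0.176 against 0.421 CPM), Plvap (0.214 against 0.454) and Emcn (0 against 0.0300) were lower in tdTom+ cells. Those of Kdr (0.0274 against 0.0175) and Tie1 (0.0683 against 0.0569) were higher, but on totals of only 4 against 4 and 10 against 9 counts. Cdh5 had 0 counts in all 8 tdTom+ libraries together, which allows up to 3, and 1 count in the tdTom- libraries. The part of endothelial cells in Notch4 was not tested. Notch3 was scarce (0.763 ± 0.241 CPM and 1.06 ± 0.372 CPM) and did not pass, with a log2 fold change of -0.50 (SE 0.24, edgeR adjusted p = 0.0698).

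Lfng (Lunatic fringe; ENSMUSG00000029570, chr5:140607320-140615545, plus strand), a glycosyltransferase that modifies Notch so that it responds more to Delta and less to Jagged ligands, was higher in tdTom+ cells. It had 36.2, 40.5 and 48.1 CPM in tdTom+ and 15.6, 18.9 and 26.4 CPM in tdTom- libraries, and every tdTom+ library was above the highest tdTom- one. With means of 41.999 ± 4.35 CPM and 19.7 ± 3.66 CPM, its log2 fold change was 1.09 (SE 0.10, edgeR adjusted p = 4.66e-09). Its window, printed above, was the one with RBPJ cores, and Lfng moved opposite to Hes1 and Nrarp. Hes1 had no window and that of Nrarp held no core, and a link between the cores and the direction was not tested. Rfng (Radical fringe) had a log2 fold change of 0.22 (SE 0.07, edgeR adjusted p = 0.00776) and Mfng (Manic fringe), with means below 1 CPM, one of 0.52 (SE 0.26, edgeR adjusted p = 0.0865). The call for Rfng was lost when libraries were scaled by total counts only (0.17, adjusted p = 0.107) and without mouse 1, 3, 7 or 8 (0.21 to 0.24). Lfng accounted for 54.2% ± 3.38 of the 3 fringe genes per exon length in tdTom+ cells and 39.3% ± 4.70 in tdTom- cells.

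Hes1 (ENSMUSG00000022528, chr16:30064384-30067796, plus strand), the main Notch effector of the crypt and a repressor of Atoh1, was lower in tdTom+ cells by a nearly constant factor. It had 37.8, 41.5 and 63.5 CPM in tdTom+ and 75.99, 89.4 and 127 CPM in tdTom- libraries, with means of 44.4 ± 8.79 CPM and 93.99 ± 15.2 CPM and a log2 fold change of -1.08 (SE 0.11, edgeR adjusted p = 3.17e-08). Mouse 2 was the highest in both populations. The per-mouse log2 ratio ran only from -1.18 to -0.998, and its SD of 0.07 was the smallest of the 10 genes. Hes1 was not silent in tdTom+ cells, where its level per exon length was 21.8 ± 4.32 RPKM, against 46.1 ± 7.48 RPKM in tdTom- cells. The lowest tdTom- library had 75.99 CPM and the highest tdTom+ library 63.5 CPM.

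Nrarp (ENSMUSG00000078202, chr2:25180758-25183339, plus strand), a Notch target whose product restrains the Notch complex, was also lower in tdTom+ cells. It had 14.7, 19.99 and 24.03 CPM in tdTom+ and 26.9, 33.9 and 42.9 CPM in tdTom- libraries, with means of 19.7 ± 2.998 CPM and 35.1 ± 5.82 CPM and a log2 fold change of -0.84 (SE 0.11, edgeR adjusted p = 6.95e-07). The tdTom+ libraries were all below the tdTom- ones. The fall of Nrarp was smaller than that of Hes1 in 8 of 8 mice, with a mean difference of the log2 ratios (Hes1 minus Nrarp) of -0.25 ± 0.12, from -0.39 to -0.02 (exact sign-flip permutation test, p = 0.00781, adjusted p = 0.0130).

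Hes6 (ENSMUSG00000067071, chr1:91411483-91414038, minus strand), a family member known to oppose Hes1 and to be expressed in differentiating cells without needing Notch, was higher in tdTom+ cells. It had 103, 136 and 157 CPM in tdTom+ and 42.4, 50.9 and 55.6 CPM in tdTom- libraries, with means of 135 ± 16.9 CPM and 50.4 ± 4.21 CPM and a log2 fold change of 1.42 (SE 0.08, edgeR adjusted p = 1.41e-12). The lowest tdTom+ library, again that of mouse 7, was well above the highest tdTom- one. The ratios of Hes1 and Hes6 were opposite in 8 of 8 mice, with a difference (Hes1 minus Hes6) of -2.50 ± 0.18 on the log2 scale, from -2.77 to -2.22 (exact sign-flip permutation test, p = 0.00781, adjusted p = 0.0130). Since the genes moved in opposite directions in every mouse, this p could only be the smallest that 8 mice allow, and it adds nothing to those directions. Per exon length Hes6 made up 77.4% ± 3.25 of the pair in tdTom+ cells and 37.98% ± 4.62 in tdTom- cells, so the leading gene of the pair changed between the populations. Hes6 in tdTom- cells was 37.3% of its tdTom+ level and Lfng 46.9%, both above the percentages of the Delta ligands.

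**Figure D3:**
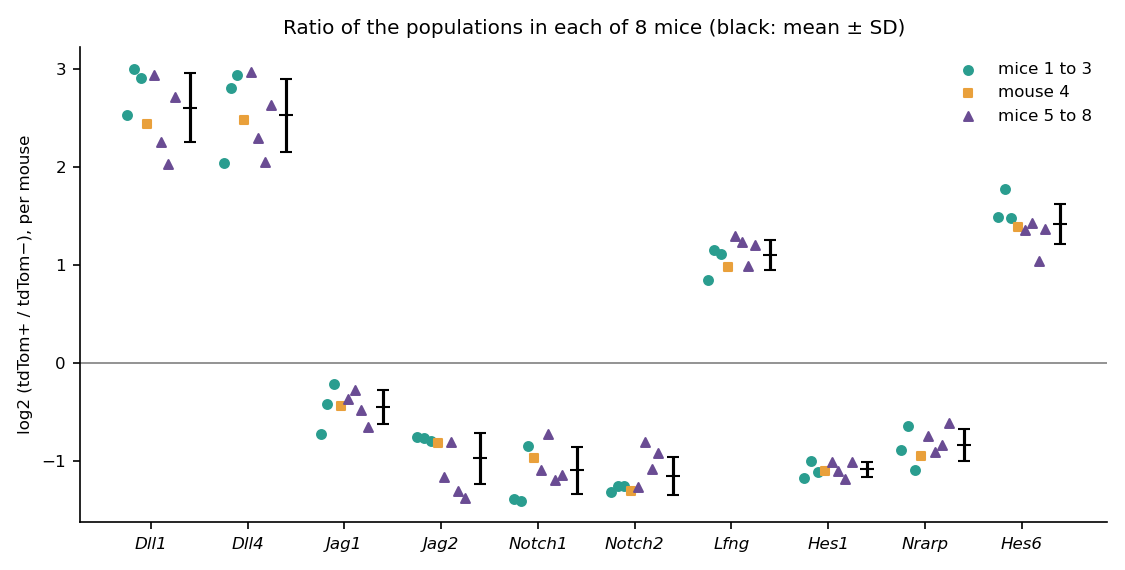
Log2 ratio of tdTom+ to tdTom- cells (log2 CPM with a prior count of 2) for the 10 genes in each of 8 mice, marked by the number series of the titles, with mean ± SD in black. Ratios of Dll1 and Dll4 lie between 2.03 and 3.004, those of Hes1 are the most tightly grouped at -1.18 to -0.998, and no gene has mice on both sides of 0.

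The genes with the most similar profiles were listed for 5 of the 10 (Dll1, Dll4, Notch1, Hes1 and Hes6), by the root mean square difference of log2 CPM centred on each gene's mean over the 16 libraries, among 14645 tested genes with a mean of at least 1 CPM. Since the libraries fall into 2 populations, this measure mostly reflects the size of the difference between them. The nearest gene to Dll1 was Dll4 (0.18) and the nearest to Dll4 was Dll1 (0.18). Next for Dll1 came Sytl4, which encodes a protein of secretory granules (0.24), and Cdc42ep3, an effector of Cdc42 (0.25). For Dll4 they were the forkhead factor gene Foxa3 (0.19) and Cxxc5 (0.21). Notch1 was nearest to Cds2, an enzyme of phospholipid synthesis (0.12), the receptor phosphatase gene Ptprs (0.14) and the potassium channel gene Kcnq1 (0.15), with Notch2 in place 34 (0.20). Hes1 was nearest to Naprt, an enzyme of NAD synthesis (0.15), Sap30l (0.17) and the lipid droplet gene Plin2 (0.17), with Notch2 in place 63. Among the genes nearest to Hes6 were Eid1 (0.13) and Tcea3 (0.13), and Lfng stood in place 271.

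The other pathway genes were spread over both directions. Of 61 other genes listed by role, 51 passed the filter, and 13 of them were higher in tdTom+ cells, 13 were lower and 25 did not pass, a share of passing genes equal to that over all genes tested (51.0%). Their median log2 fold change was 0.03, against 0.004 for all genes tested. Among the ligand genes outside the 10, Dlk1, a non-canonical ligand, had a log2 fold change of 1.33 (SE 0.27, edgeR adjusted p = 2.84e-04), while Dner, another atypical ligand, had one of -2.02 (SE 0.33, edgeR adjusted p = 1.89e-05) at means below 4 CPM in both populations. Dll3, a Delta-type gene, fell below the filter on low counts, with 7 to 18 counts per tdTom+ and 0 to 9 per tdTom- library and means of 0.622 and 0.173 CPM. In the fit without the filter it was higher in tdTom+ cells, with a log2 fold change of 1.89 (SE 0.42, edgeR adjusted p = 6.60e-04), and Dlk2 did not pass.

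Enzymes that add sugars to the receptors moved both ways. Of 7 tested, Gxylt1, a xylosyltransferase, was higher with a log2 fold change of 0.85 (SE 0.06, edgeR adjusted p = 3.36e-10), as was Rfng. Eogt, which adds O-linked N-acetylglucosamine, was lower at -0.62 (SE 0.08, edgeR adjusted p = 2.45e-06), as was the fucosyltransferase gene Pofut1 at -0.33 (SE 0.07, edgeR adjusted p = 2.57e-04). Poglut1, Xxylt1 and Mfng did not pass, with log2 fold changes of 0.13, -0.0039 and 0.52, and Gxylt2 fell below the filter on low counts.

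The ubiquitin ligases that drive ligand endocytosis, a step needed in the signal-sending cell, included the opposite pair Neurl1a and Neurl1b. Neurl1a was higher in tdTom+ cells, at 6.56 ± 1.35 CPM against 2.72 ± 0.726 CPM, with a log2 fold change of 1.29 (SE 0.16, edgeR adjusted p = 7.87e-07). Neurl1b was lower, at 26.3 ± 4.07 CPM against 51.3 ± 3.98 CPM, with a log2 fold change of -0.96 (SE 0.08, edgeR adjusted p = 2.52e-09). Mib2 was lower as well, at -0.35, and Mib1 did not pass, at 0.13. The call of Mib2 was lost in mice 1 to 3 alone (-0.40, edgeR adjusted p = 0.0182) and in mice 5 to 8 alone (-0.34, edgeR adjusted p = 0.0289).

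Genes of the proteases that cleave the receptor differed by small amounts. Of 10 genes, 3 were higher (Furin, Psen2 and Aph1b), 2 were lower and 5 did not pass, with extremes of 0.51 (SE 0.08, edgeR adjusted p = 2.46e-05) for Aph1b and -0.33 (SE 0.05, edgeR adjusted p = 1.01e-05) for Aph1a. Aph1b and Aph1c are near-identical paralogs, and how reads were divided between them is uncertain. The calls of Furin (0.21, adjusted p = 0.0411) and Psen2 (0.21, adjusted p = 0.0751) were lost when libraries were scaled by total counts only. That of Furin was also lost without mouse 1 or 8 (0.24 and 0.25), and that of Psen2 without the filter and without mouse 2, 4, 5, 6, 7 or 8 (0.24 to 0.28). In the nuclear complex 8 of 9 genes did not pass, among them Rbpj itself (0.05), and Maml3 was higher at 0.33 (SE 0.07, edgeR adjusted p = 6.66e-04), a call lost with total counts only (0.28, adjusted p = 0.0165). Ep300, an acetyltransferase gene at -0.19 (edgeR adjusted p = 0.0108), passed as lower when the mouse was a block (adjusted p = 0.00816). The lowest value of that group was -0.59 (SE 0.31, edgeR adjusted p = 0.101) for Maml2, below 1 CPM in both populations.

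Corepressors divided evenly, with 3 of 9 higher, 3 lower and 3 not passing. The Groucho-type corepressors, partners of Hes proteins, moved in opposite directions. Tle2 was higher at 1.18 (SE 0.18, edgeR adjusted p = 7.09e-06) and Tle1 at 0.55, whereas Tle3 was lower at -0.56 (SE 0.09, edgeR adjusted p = 1.15e-05) and Tle4 at -0.52. Genes of inhibition and turnover held 3 lower genes and no higher one among 7 tested. Numb, an inhibitor of Notch, was lower at -0.66 and the ubiquitin ligase gene Dtx4 at -0.65. Numbl had the lowest value, -0.81 (SE 0.25, edgeR adjusted p = 0.00823), at means of about 1 CPM or less, and did not pass when the mouse was a block (-0.79, adjusted p = 0.0118) or without mouse 1, 2, 3, 5, 6, 7 or 8 (-0.87 to -0.61). Dtx3 was highest in that group, at 0.14 (SE 0.16, edgeR adjusted p = 0.490), and did not pass.

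Of the other Hes and Hey genes only Hes2 passed the filter on low counts. It was higher in tdTom+ cells, at 5.39 ± 0.639 CPM against 2.98 ± 0.666 CPM, with a log2 fold change of 0.86 (SE 0.13, edgeR adjusted p = 1.06e-05). Hes7, a gene of the embryonic somite clock, fell below it with 8 to 21 counts per tdTom+ and 1 to 13 per tdTom- library. Its levels of 0.478 to 1.01 CPM in tdTom+ and 0.0530 to 0.379 CPM in tdTom- cells did not overlap, and in the fit without the filter it was higher in tdTom+ cells, with a log2 fold change of 1.49 (SE 0.28, edgeR adjusted p = 1.01e-04). Hes5 had means of 0.103 and 0.228 CPM and Hey1 0.0759 and 0.216 CPM, and neither passed in that fit (adjusted p = 0.0546 and 0.0592). Hes3, Hey2 and Heyl had means below 0.1 CPM in both populations and did not pass either.

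**Figure D4:**
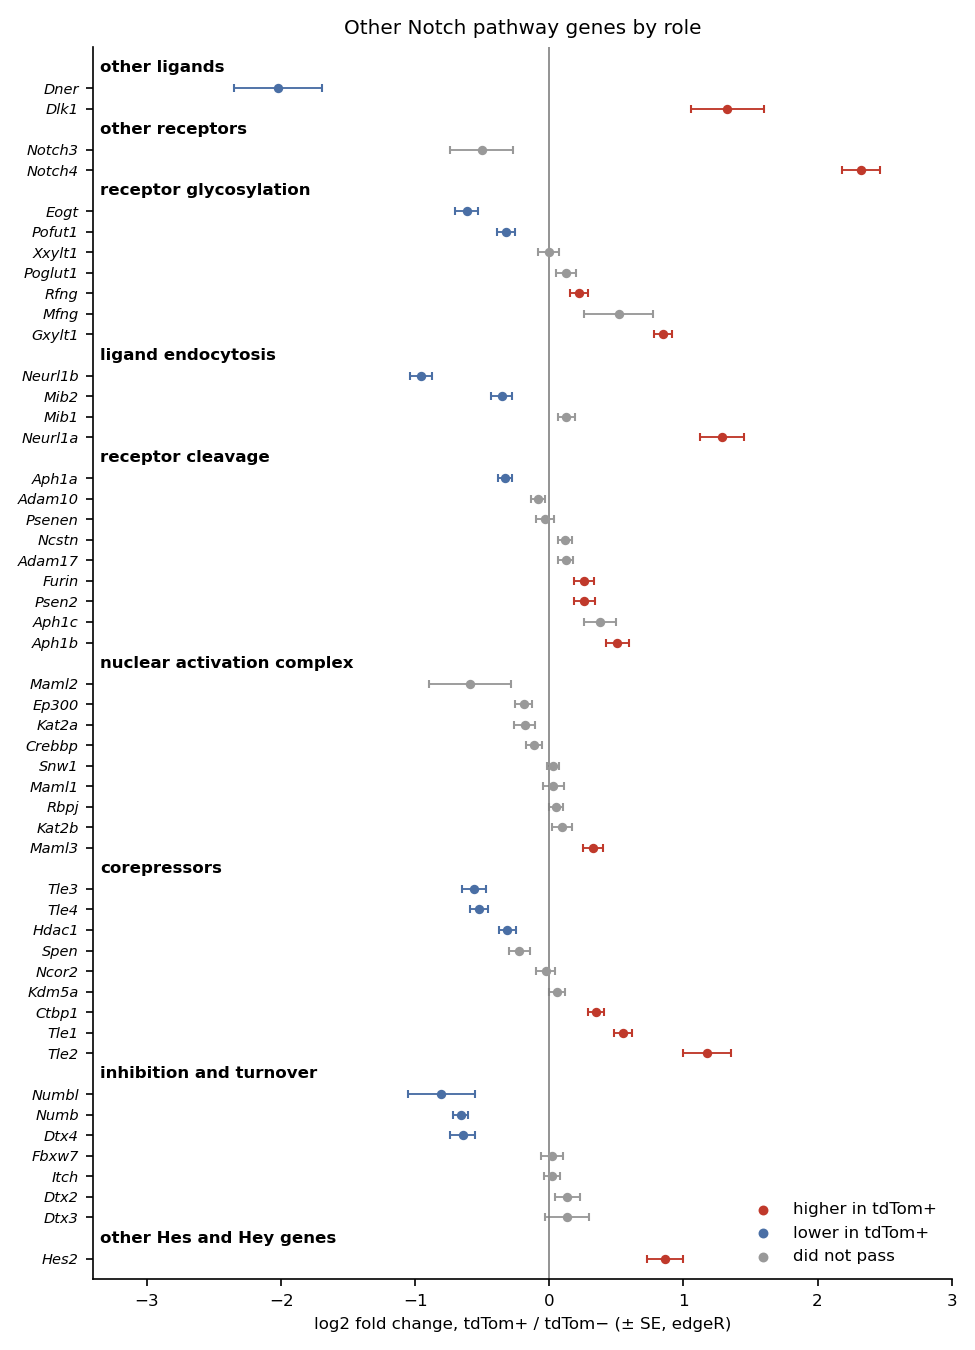
Log2 fold change of tdTom+ over tdTom- cells with its SE (edgeR) for tested pathway genes other than the 10, grouped by role, with 1 of the 51 not shown; red and blue points passed an adjusted p of 0.01 upward and downward and grey points did not. Notch4 at 2.32 and Dner at -2.02 are the extremes, and 8 of 9 genes of the nuclear activation complex are grey, from -0.59 (Maml2) to 0.09 (Kat2b).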

How the data were processed

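RNA was sequenced from EpCAM+ tdTom+ and EpCAM+ tdTom- cells of 8 mouse colons (stranded mRNA libraries, single-end reads of 50 bases). The authors aligned reads to GRCm38 with TopHat2 2.1.1 and deposited featureCounts counts per gene on exons, primary alignments and the reverse strand only, without normalization; the file headers name version 1.5.0-p1 and the submitters' processing notes Subread 1.5.2 and DESeq2 1.14.1. Symbols came from GENCODE M21 for 44585 of 45513 genes. That counting may lose reads of near-identical paralogs or split them.

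Populations and mouse numbers came from the labels. Library totals of 16482530 to 45791503 counts limit precision for genes near 0. No replicate pair matched within sampling noise. The deposited counts were tested in R 4.3.3 with edgeR 4.0.16 (filterByExpr, TMM, glmQLFit and glmQLFTest, no mouse term, Benjamini-Hochberg adjusted p under 0.01), and SEs equal the absolute log2 fold change over the root of its F statistic. Log2 CPM used a prior count of 2, and RPKM the exon length in the files. Differences between 5 pairs of genes were tested by exact two-sided sign flips over 8 mice (256 flips, adjusted p under 0.05). The numbers pair the libraries, since both come from 1 mouse: deviations from the group means correlated at 0.22 or more within mice and at 0.17 or less between mice. Alternatives were the replicate block, DESeq2 1.42.0, limma-voom (limma 3.58.1), other normalizations, filters, thresholds and prior counts, each mouse left out, and mice 1 to 3 or 5 to 8 only. The fits were tested on simulated data.

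The genes named are the 10, Atoh1, the extremes of each role group and all genes of the small groups named in full, the leading markers, and the 3 nearest profiles of 5 members. Spink4, Zg16, Tff3, Mki67, Top2a, Mcm2, Pecam1, Cdh5, Kdr, Tie1, Tek, Plvap, Emcn and further pathway genes were named after their values were seen. Values of 2 genes under this rule are not reported here. The members and lists were chosen with earlier results of these data known. Summaries used Python 3.11.15 with pandas 2.3.3, numpy 2.4.6 and scipy 1.17.1.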

Additional observations from a re-analysis of the deposited data

Results flagged for a closer look

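A sample far from the others was sought in 66 groups of 8 libraries (33 Notch pathway genes in each population, log2 CPM). Chance alone gives about 1 in 20 such groups, here 3.30, and 5 were found, all in tdTom+ cells and none among the 10 Notch genes described above. Dlk1 was low in mouse 2 (1.65 against 2.75 to 3.69 in the other 7). Mouse 3 gave 3 of the 5, with a low Gxylt1 (5.80 against 6.09 to 6.29 in the other 7), a low Dtx3 (2.08 against 2.61 to 3.04 in the other 7) and a high Hes2 (2.80 against 2.32 to 2.53 in the other 7). Numbl was low in mouse 7 (-1.87 against -0.85 to -0.20 in the other 7).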

How the results depend on the processing

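Of 190 alternative values of the 10 Notch genes, 188 kept their direction and side of the threshold, 0 reversed, and the 2 that lost the call were Jag1 and Jag2 in mice 1 to 3. Log2 fold changes ranged from 2.51 to 2.84 for Dll1, -1.13 to -1.06 for Hes1 and -1.18 to -0.78 for Jag2. All 65 alternative values of the differences between pairs of genes were on the same side of their threshold or within the spread of the mice. With the mouse as a replicate block, 4 of the 10 were higher and 6 lower (Dll1 2.61, Hes1 -1.09), and 13 other pathway genes were higher and 14 lower, with Numbl losing its call and Ep300 and Spen gaining one. Without the filter 14 other pathway genes were higher, Dll3 and Hes7 among them, and 11 lower. In mice 1 to 3 only, 5 other pathway genes were higher and 7 lower, and 2546 of all genes were higher and 2559 lower; fewer samples entered that fit. Of 427 values of other named genes, 391 kept direction and call, 27 lost the call and 9 changed sign. The changes of sign were Xxylt1, near 0 throughout (0.0070 without the filter, 0.0019 with the block, 0.11 in mice 1 to 3, and -0.037 to 0.037 with 1 mouse left out), and Dtx3 (-0.13 in mice 1 to 3). Calls were also lost in mice 1 to 3 for Dlk1, Rfng, Eogt, Aph1a, Maml3, Tle2, Numbl and Hes2, and in mice 5 to 8 for Rfng, Pofut1 and Numbl. Among further pathway genes named above, Mib2 lost its call in mice 1 to 3 and in mice 5 to 8, and Furin and Psen2 lost theirs in mice 1 to 3. Scaling by total counts shifted the median of all genes by -0.05 on the log2 scale and left 9 other pathway genes higher and 13 lower, with the calls of Rfng, Furin, Psen2 and Maml3 lost. The causes were not tested. Depth limits Jag2, Numbl, Notch3 and the Hes and Hey genes below the filter.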

Other observations

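Whether Notch genes rose and fell together from mouse to mouse within 1 population was examined after the values were seen, for 4 relations over 8 mice each (log2 CPM, two-sided, Benjamini-Hochberg over the 4). For Dll1 and Dll4 in tdTom+ cells, Pearson's r was 0.93 (exact permutation p = 0.00871, adjusted 0.0348), Spearman's rho 0.64 (p = 0.0962, adjusted 0.192), and r 0.39 without the 2 mice farthest from the median of Dll1. The relation was therefore not shown without those 2 mice. Taking out the farthest values of Dll1 narrows its range and can itself lower r, so the drop does not show that the relation rests on them. In tdTom- cells the Delta ligands gave the following values: Pearson's r was 0.72 (exact permutation p = 0.0426, adjusted 0.0852), Spearman's rho 0.86 (p = 0.0107, adjusted 0.0429), and r 0.66 without the 2 mice farthest from the median of Dll1. For Notch1 and Hes1 in tdTom+ cells, Pearson's r was -0.17 (exact permutation p = 0.665, adjusted 0.665), Spearman's rho 0.17 (p = 0.703, adjusted 0.703), and r -0.74 without the 2 mice farthest from the median of Notch1. In tdTom- cells, for the same pair, Pearson's r was 0.30 (exact permutation p = 0.484, adjusted 0.646), Spearman's rho 0.24 (p = 0.582, adjusted 0.703), and r 0.81 without the 2 mice farthest from the median of Notch1. The number series hold at most 4 mice, too few for a value within them.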
